A study of Mus musculus with 6 samples.

Results

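The genes described here are 33 genes listed as pan-neuronal. They encode parts of the cytoskeleton, RNA-binding proteins, adhesion molecules, secretory proteins and nuclear factors that many newborn neurons express. A probe set was taken as a member when its only gene symbol in the annotation of the mouse 430A array was one of these 33, which gave 70 of the 22626 probe sets tested; all 33 genes were represented, 14 by 1 probe set and 19 by more. RNA came from pools of rhombomere 4, the hindbrain segment that gives rise to the facial motor neurons, dissected from mouse embryos at E10.5 together with neighbouring branchial arch tissue. The 3 wild-type pools came from normal embryos and the 3 mutant pools from embryos mutant for Hoxb1, the homeobox gene that specifies this segment. The sources used here do not state the mutant allele, the zygosity or the strain, and each pool combined several embryos. The comparison addresses whether transcripts of the general neuronal programme differ in level when Hoxb1 is mutated.

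Neurons of the hindbrain are born from progenitors that line the ventricle. As they leave the cell cycle and migrate outward they switch on a common programme, whatever their final type: neuronal tubulin and microtubule-associated proteins, then neurofilaments, RNA-binding proteins of the Elav family and the first parts of the secretory machinery. Transcript levels of these genes in a tissue piece follow both the share of neurons in it and their maturity. In bulk tissue, fewer neurons and less RNA per neuron cannot be told apart.

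Each of the 6 arrays gave 1 intensity per probe set, on an arbitrary linear scale that the deposited values show to be set to a trimmed mean of 500 on every array. Arrays correlated at 0.976 to 0.984 within groups and at 0.973 to 0.983 between groups. Hoxb1 itself gave 341, 378 and 588 on the wild-type arrays and 60.8, 35.3 and 50.03 on the mutant arrays, although the sources used here do not state where in the gene the mutation or the probe set lies. Bacterial control probe sets, 27 in number, had a 95th percentile of 61.5, used below as the level of background. The probe sets for 18S ribosomal RNA were far brighter on wild-type replicates 2 and 3 (mean log2 signals of 12.1 and 11.3) than on the other 4 arrays (6.36 to 7.03). Pan-neuronal transcripts were clearly present: for 32 of the 33 genes the brightest probe set was above the bacterial level on all 6 arrays, and for Dpysl2 it was above on 5. Values below are given in the order of replicates 1, 2 and 3, and differences are the mutant mean minus the wild-type mean of log2(intensity + 16), a scale that compresses changes of dim probe sets. Precision is limited by the number of arrays.

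No pan-neuronal gene passed the threshold, a limma adjusted p under 0.05. Hoxb1 itself missed it too, with a log2 difference of -2.78 (SE 0.24) and a limma adjusted p of 0.0695. Among the 70 member probe sets, 0 had a limma adjusted p under 0.05 (lowest 0.833), as did 0.0% of all probe sets; at an unadjusted limma p under 0.05, 2 were lower in mutants and 0 higher. Over all probe sets, 3.88% were lower and 1.88% higher by that rule, so the members' count was near the background. By the brightest probe set of each gene, 26 of 33 genes had a lower mean in mutants, 78.8%, against 54.5% of all 12393 genes, and the median log2 difference was -0.21, against -0.023 over all genes. Differences of single genes ran from -0.54 (Cntn2) to 0.37 (Dpysl2). The groups did not overlap in 1 of the 70 member probe sets, that of Ebf3, lower in mutants, and in 0 higher. Without overlap, 7.08% of all probe sets were lower and 4.88% higher, and by gene 7.33% and 5.0%. A 95% interval reached, in the median, 0.46 to each side of the difference, and for 31 of the 33 genes the interval excluded a decrease by 1 log2 unit; it reached further down in Map2 and Rtn1. For 7 genes the interval lay within 0.5 of 0.

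**Figure D1:**
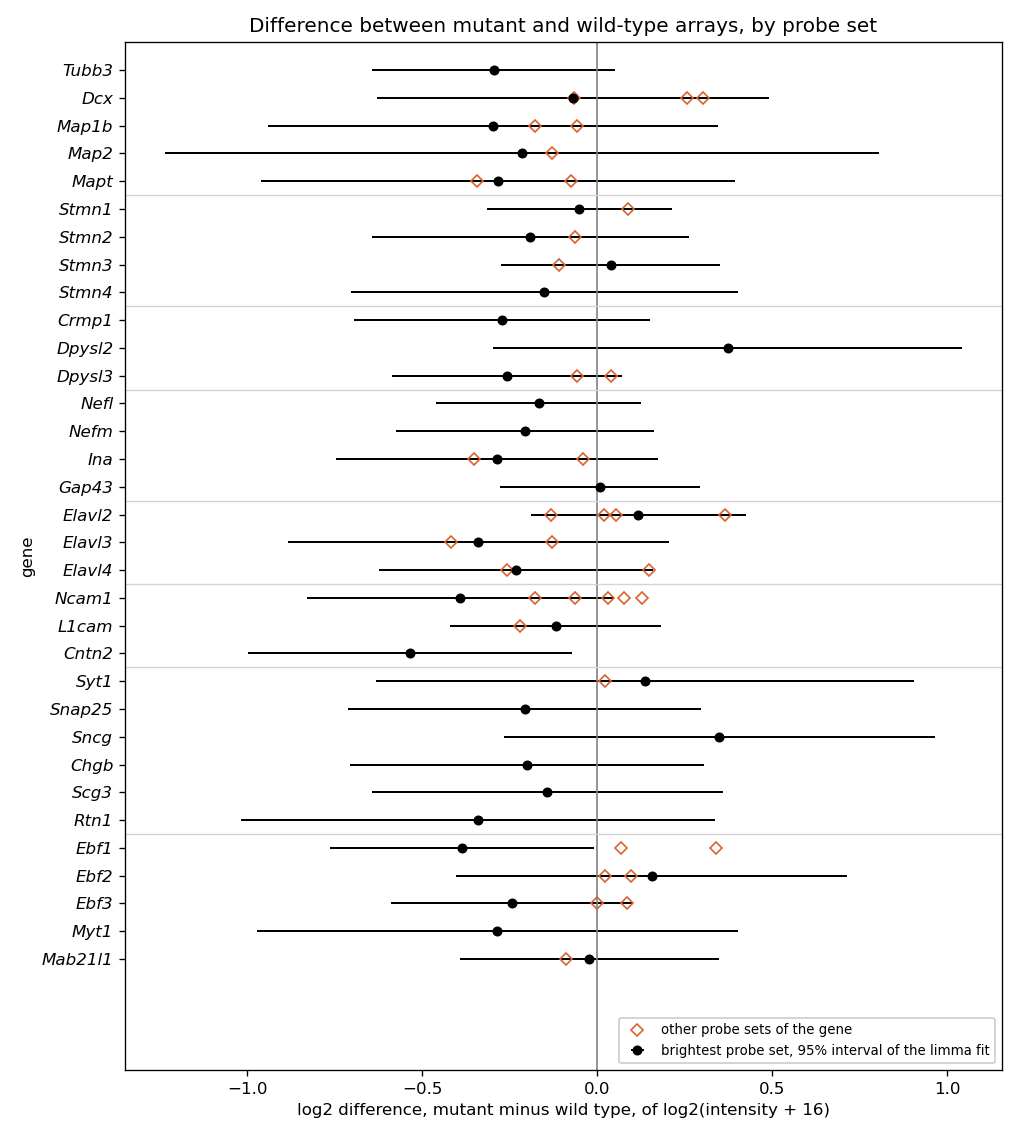
Log2 difference, mutant minus wild type, for the brightest probe set of each of the 33 genes (black points, bars are 95% intervals of the limma fit on 3 against 3 arrays) and for the other probe sets of the same gene (open diamonds); grey lines separate the roles in the order of the text. Most black points lie left of 0, all but those of Cntn2 and Ebf1 have intervals that include 0, and the diamonds often lie to the right of the black point, as in Dcx, Ncam1 and Ebf1.

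The lower mutant means did not come evenly from the 6 arrays. Wild-type replicate 3 held the highest value of 18 of the 33 genes, 54.5%, and was the highest array for 21.5% of all genes. Mutant replicate 3 held the lowest value of 24 of the 33 genes, 72.7%, and was the lowest for 20.7% of all genes. The array score, the mean over the 33 genes of the log2 deviation from each gene's own mean, was -0.0017, -0.016 and 0.25 in the wild type and 0.12, -0.042 and -0.31 in mutants. The groups overlapped: mutant replicate 1 lay above wild-type replicates 1 and 2. With the 18S signal as a covariate, 25 of 33 genes had a lower mean in mutants, the median log2 difference was -0.13 in place of -0.21, and the difference between the groups' mean scores was -0.083 in place of -0.15. Array weights gave a median of -0.12, 28 of 33 genes lower and a score difference of -0.14. Over all genes, 58.2% were then lower with a median of -0.041, against 54.5% and -0.023 in the main fit. Without wild-type replicates 2 and 3, the arrays of high 18S signal, 26 genes were lower, the median was -0.11 and the score difference -0.074. No mutant array had a high 18S signal, so the covariate fit compared mainly wild-type replicate 1 with the mutants. The covariate fit and the fit without these arrays are therefore not separate checks. Neither can tell an effect of 18S signal from other differences between wild-type pools.

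Set array against array, mutant replicate 3 was below wild-type replicate 3 in 32 of 33 genes, with a median difference of -0.57, where the median over all genes was -0.040. It was below wild-type replicates 1 and 2 in 30 and 28 genes. Mutant replicate 2 was below wild-type replicates 1, 2 and 3 in 20, 16 and 27 genes. Mutant replicate 1 was below wild-type replicate 3 in 21 genes, but below wild-type replicates 1 and 2 in 12 each, with medians of 0.061 and 0.065. Over all genes, the share lower in the mutant array of a pair ran from 45.4% to 58.6% over the 9 pairs. Without mutant replicate 3 the count of genes with a lower mutant mean was 20 of 33 and the median log2 difference -0.065, and leaving out wild-type replicate 3 gave 25 and -0.11. Leaving out mutant replicate 1 gave 29 and -0.26. Then 7 member probe sets were lower at an unadjusted limma p under 0.05, as were 6.51% of all probe sets. Over all genes, 52.0%, 55.9% and 59.3% were lower in these fits, in the order given, with medians of -0.0098, -0.029 and -0.051. With both replicates numbered 3 left out, a choice made after seeing the data, 16 of 33 genes had a lower mean in mutants and the median was 0.0079, against 53.6% and -0.017 over all genes. Leaving out the array that was most often highest among wild types and the one most often lowest among mutants lowers such a count and raises the median by construction.

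**Figure D2:**
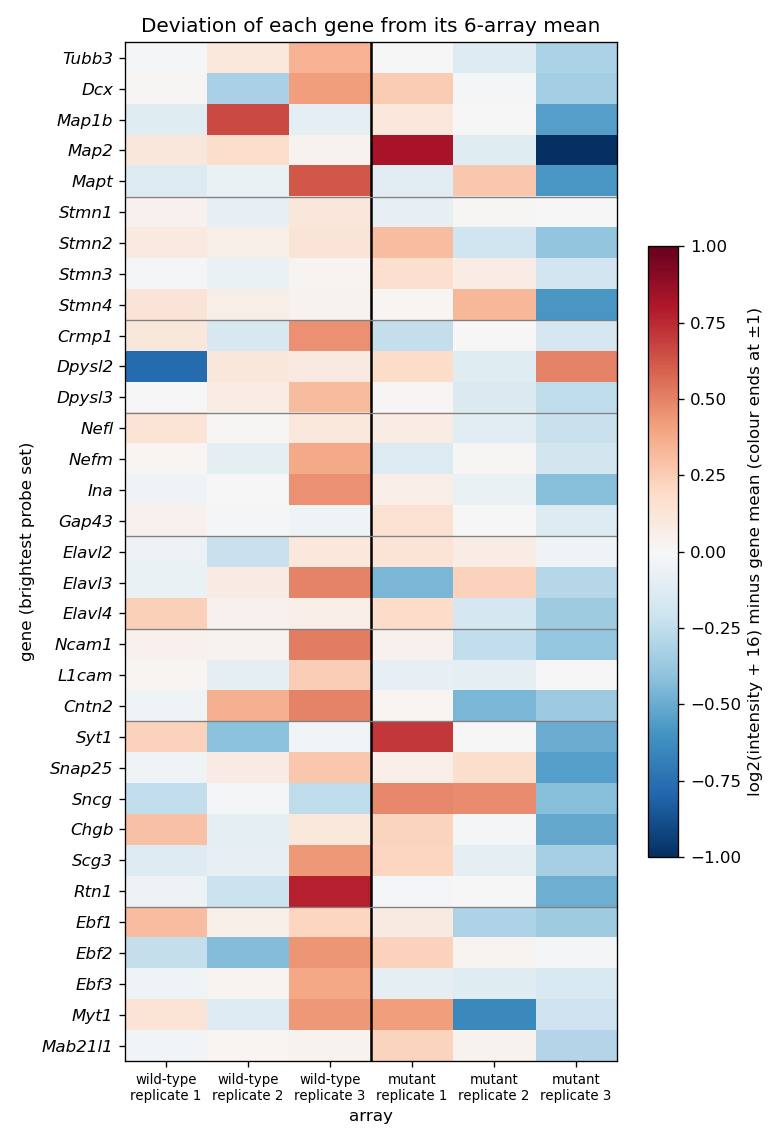
Deviation of each gene's log2(intensity + 16) from its mean over the 6 arrays, for the brightest probe set of the 33 genes; columns are arrays, the black line separates wild type from mutant, and colours end at ±1. The column of wild-type replicate 3 is mostly red, with 29 of 33 genes above their mean, and that of mutant replicate 3 mostly blue, with 2 of 33 above.

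Neuronal tubulin and the microtubule-associated proteins came lowest on mutant replicate 3 and not on the other mutant arrays. All 5 genes had a lower mean in mutants, with a median log2 difference of -0.28, and 0 of 5 had an unadjusted limma p under 0.05. Tubb3, the neuron-specific beta-tubulin, gave 1573, 1704 and 2017 in the wild type and 1582, 1444 and 1270.5 in mutants (1415978_at; log2 difference -0.30, SE 0.15). Mutant replicate 1 lay within the wild-type range and the other mutant arrays below it. Map1b, which binds microtubules in growing axons, gave 719, 1243 and 735 and, in mutants, 842, 782 and 529.8 (-0.30, SE 0.27), with wild-type replicate 2 above all other arrays. That difference turned to 0.021 with the 18S signal as a covariate and to -0.029 without wild-type replicates 2 and 3, fits that are not separate checks. Mapt, which encodes tau, gave 188, 198 and 329 in the wild type and 191, 254 and 134 in mutants (-0.28, SE 0.28), with wild-type replicate 3 high and mutant replicate 3 low.

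Map2, the microtubule-associated protein of cell bodies and dendrites, had the widest spread of the group among mutants. Its brightest probe set gave 273, 286 and 258 in the wild type and 459, 231 and 115 in mutants (-0.22, SE 0.43), so the mutant arrays lay on both sides of a narrow wild-type range. The second probe set of Map2 gave 229, 87.0 and 16.7 on the mutant arrays, with replicate 3 below the bacterial level, and 72.4, 57.7 and 149 in wild type. Dcx, doublecortin, which marks migrating young neurons, gave 810.0, 636 and 1078 in wild-type pools against 958, 795 and 631 in mutants (-0.069, SE 0.23). Of its other 3 probe sets, 1418141_at and 1448974_at had differences of 0.26 and 0.30 (SE 0.27 and 0.39), with mutant replicate 1 highest in both, and 1418140_at had -0.067.

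The stathmins, small proteins that bind tubulin dimers and promote microtubule turnover, had mean differences from -0.19 (Stmn2) to 0.038 (Stmn3). Of the 4 genes, 3 had a lower mean in mutants, the median difference was -0.10, and 0 had an unadjusted limma p under 0.05. Stmn1, which progenitors express as well as neurons, gave 10076, 9270.0 and 10622 in the wild type and 9246, 9891 and 9747 in mutants (-0.051, SE 0.11, 95% interval -0.32 to 0.21); the difference turned to 0.0023 with arrays centred on their medians. Stmn2, the growth cone stathmin SCG10, gave 2738, 2676 and 2811 in wild-type pools against 3174, 2229 and 1949 in mutants (-0.19, SE 0.19): the wild-type arrays were close together, mutant replicate 1 above them and the other mutant arrays below. The second probe set of Stmn2 had the same order of mutant arrays, 2457, 1849 and 1654, with wild type at 2115, 1958 and 2077.

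Stmn3 was the only stathmin with a higher mean in mutants. It gave 1204, 1162 and 1240.3 in the wild type and 1373, 1284 and 1066 in mutants (0.038, SE 0.13), and its dimmer probe set had -0.11 (SE 0.13). Stmn4 gave 310.5, 295 and 289 in wild-type pools against 286, 359.7 and 183 in mutants (-0.15, SE 0.23), with mutant replicate 2 highest and replicate 3 lowest of all arrays. The brightest probe sets of Stmn1 and Stmn3 carry the suffixes s and x, which mark probe sets whose probes can match other transcripts.

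Genes of the CRMP family, cytoplasmic phosphoproteins that act in semaphorin signalling and axon growth, had mutant means on both sides of wild type. Crmp1 gave 1503, 1246 and 1913 in the wild type and 1177, 1385 and 1240.0 in mutants (-0.27, SE 0.18), overlapping on mutant replicate 2. Dpysl3 gave 1618, 1700.0 and 2018 in wild-type pools against 1633, 1459 and 1355 in mutants (-0.26, SE 0.14), with mutant replicate 1 inside the wild-type range, while its other probe sets had 0.040 and -0.057. Dpysl2 was dim, at 35.8, 79.5 and 78.1 in the wild type and 84.2, 65.2 and 108 in mutants (0.37, SE 0.28). Wild-type replicate 1 of Dpysl2 lay below the bacterial level, and the other wild-type arrays lay within the mutant range. None of the 3 genes had an unadjusted limma p under 0.05.

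The neurofilament subunits and the growth cone protein Gap43 were bright, and the groups overlapped in each of the 4 genes. Nefl, the light subunit, gave 3709, 3402 and 3626 in the wild type and 3561, 3131 and 2897 in mutants (-0.17, SE 0.12). Mutant replicate 1 lay within the wild-type range and the other mutant arrays below it. Nefm, the medium subunit, gave 2886, 2667 and 3709 in wild-type pools against 2590.1, 2861 and 2505 in mutants (-0.21, SE 0.15), with wild-type replicate 3 above the other 5 arrays. Ina, the internexin alpha subunit found in early neurons, gave 1266, 1300.1 and 1781 in wild-type pools against 1355, 1234 and 959 in mutants (-0.29, SE 0.19), again with wild-type replicate 3 highest and mutant replicate 3 lowest. Its other probe sets had -0.35 and -0.040 (SE 0.21 and 0.25).

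Gap43, a phosphoprotein of the growth cone membrane, was among the genes nearest to wild type. It gave 1717, 1655 and 1620.4 in the wild type and 1861, 1661 and 1515 in mutants, a log2 difference of 0.0082 (SE 0.12, 95% interval -0.28 to 0.30), of opposite sign (-0.016) after quantile normalization. Wild-type replicate 3 was the lowest wild-type array here, unlike in Nefm and Ina, and mutant replicate 3 was again the lowest of all. Of these 4 genes, 3 had a lower mean in mutants, with a median of -0.19 and 0 at an unadjusted limma p under 0.05.

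The neuronal Elav genes encode RNA-binding proteins that stabilise transcripts and steer splicing in neurons. Elavl2 was slightly higher in the mean, at 1288, 1147 and 1444 in the wild type and 1478, 1411 and 1310.2 in mutants (0.12, SE 0.13); its other 4 probe sets ran from -0.13 to 0.37. Elavl3, HuC, gave 642, 714 and 958 in wild-type pools against 488, 794 and 550.1 in mutants (-0.34, SE 0.23), with mutant replicate 2 inside the wild-type range. All 3 probe sets of Elavl3 had a lower mean in mutants, and wild-type replicate 3 was the highest array in each. Elavl4, HuD, gave 1224, 1064 and 1087 in wild-type pools against 1176, 915 and 805 in mutants (-0.23, SE 0.16), while its probe set 1428741_at gave 638, 811 and 805 in wild-type pools against 771, 868 and 851 in mutants, a difference of 0.15 in the other direction. The family had 2 of 3 genes lower in the mean, and 0 of its 11 probe sets at an unadjusted limma p under 0.05.

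Among the adhesion molecules, Cntn2 had the member probe set of smallest p. Cntn2 encodes contactin 2 (TAG-1), a surface glycoprotein of early outgrowing axons. It gave 198, 266 and 295 in the wild type and 208, 145 and 156 in mutants, 253 ± 49.7 and 169 ± 33.5 (mean ± SD, n = 3). Mutant replicate 1 lay just above wild-type replicate 1, and the other 2 mutant arrays lay below all wild-type arrays. The log2 difference was -0.54 (SE 0.19, 95% interval -0.999 to -0.071), with a limma p of 0.0297 before adjustment and 0.833 after it. The Cntn2 difference stayed below 0 in all 16 alternative settings, from -0.69 to -0.22, with adjusted p of 0.516 and above. Cntn2 has 1 probe set on the array.

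Ncam1, the neural cell adhesion molecule, gave 657, 653 and 912 in the wild type and 656, 533 and 484 in mutants (-0.39, SE 0.18). Wild-type replicate 3 was far above the rest and mutant replicate 1 lay within the wild-type range. The next brightest Ncam1 probe set, 1426865_a_at, gave 383, 327 and 493 in wild-type pools against 523, 423 and 297 in mutants, a difference of 0.030 (SE 0.24), and 2 others lay below the bacterial level on all arrays. L1cam, an adhesion molecule of axon bundles, gave 376, 347 and 441 in wild-type pools against 349, 344 and 371 in mutants (-0.12, SE 0.13), with mutant arrays close together and inside or just below the wild-type range. All 3 adhesion genes had a lower mean in mutants, with a median of -0.39, and 1 of the 3, Cntn2, had an unadjusted limma p under 0.05.

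Synaptic and secretory genes were dim to moderate. The group also holds Rtn1, which was brighter, and mutant replicate 3 was the lowest array in all 6 genes. Syt1, the calcium sensor of vesicle release, gave 121, 71.5 and 97.8 in the wild type and 174, 99.7 and 66.2 in mutants (0.14, SE 0.32), with mutants above and below all wild-type arrays. Its sign turned in 5 of 16 settings. Snap25, a SNARE protein, gave 202, 222 and 255 in wild-type pools against 219, 237 and 137 in mutants (-0.21, SE 0.21), and Chgb, the granule protein chromogranin B, gave 241, 181 and 210.0 in wild-type pools against 229, 193 and 131 in mutants (-0.20, SE 0.21). In both, the other mutant arrays lay within the wild-type range. Without mutant replicate 3 these differences turned to 0.015 and 0.0056.

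Scg3, the granule protein secretogranin 3, gave 358, 369.7 and 535 in the wild type and 459, 367 and 309 in mutants (-0.14, SE 0.21), and Rtn1, a reticulon of the endoplasmic reticulum, gave 903, 807 and 1613 in wild-type pools against 923, 933 and 663 in mutants (-0.34, SE 0.28). In Rtn1, wild-type replicate 3 stood apart, and mutant replicates 1 and 2 were slightly above the other wild-type arrays. Sncg, gamma-synuclein, which is abundant in sensory and motor neurons, was higher in the mean, at 149.9, 178 and 148 in wild-type pools against 258, 256 and 130.4 in mutants (0.35, SE 0.26). Mutant replicates 1 and 2 of Sncg lay above all wild-type arrays and replicate 3 below them. Of the 6 genes, 4 had a lower mean in mutants and 0 an unadjusted limma p under 0.05.

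The nuclear factors differed from one another. The Ebf genes encode helix-loop-helix transcription factors that act as neurons leave the ventricular zone and differentiate. The brightest probe set of Ebf1, 1448293_at, gave 465, 388 and 436 in the wild type and 397, 297 and 288 in mutants, 429.8 ± 39.1 and 327 ± 60.6 (mean ± SD, n = 3), with mutant replicate 1 just above wild-type replicate 2. Its log2 difference was -0.39 (SE 0.16, 95% interval -0.76 to -0.0097), with a limma p of 0.0458 before adjustment and 0.833 after it. The other Ebf1 probe sets pointed the other way. Probe set 1416302_at gave 217, 186 and 228 in wild-type pools against 268, 231 and 173 in mutants (0.069, SE 0.18), and 1416301_a_at gave 196, 128 and 268 in wild-type pools against 293, 225 and 221 in mutants (0.34, SE 0.26).

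Ebf3 was the member gene without overlap between groups in its brightest probe set, at 940.0, 989 and 1276 in the wild type and 907, 892 and 874 in mutants (-0.24, SE 0.14), a narrow gap between mutant replicate 1 and wild-type replicate 1. Its other probe sets overlapped, at 0.084 and -0.00033 (SE 0.18 and 0.19). Ebf2 gave 354, 308 and 577 in wild-type pools against 496, 429.5 and 415 in mutants (0.16, SE 0.23), with all mutant arrays inside the wild-type range, and its other probe sets had 0.097 and 0.023. Myt1, a zinc finger factor of newborn neurons, gave 217, 177 and 271 in wild-type pools against 268, 119.7 and 168 in mutants (-0.29, SE 0.29). Mab21l1, a nuclear protein of differentiating neural tissue, gave 423, 438 and 443 in wild-type pools against 507, 443 and 348 in mutants (-0.022, SE 0.15), and its sign turned under quantile normalization and median centring (0.017 and 0.032). The wild-type arrays of Mab21l1 were nearly level, and the mutant arrays lay around them.

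**Figure D3:**
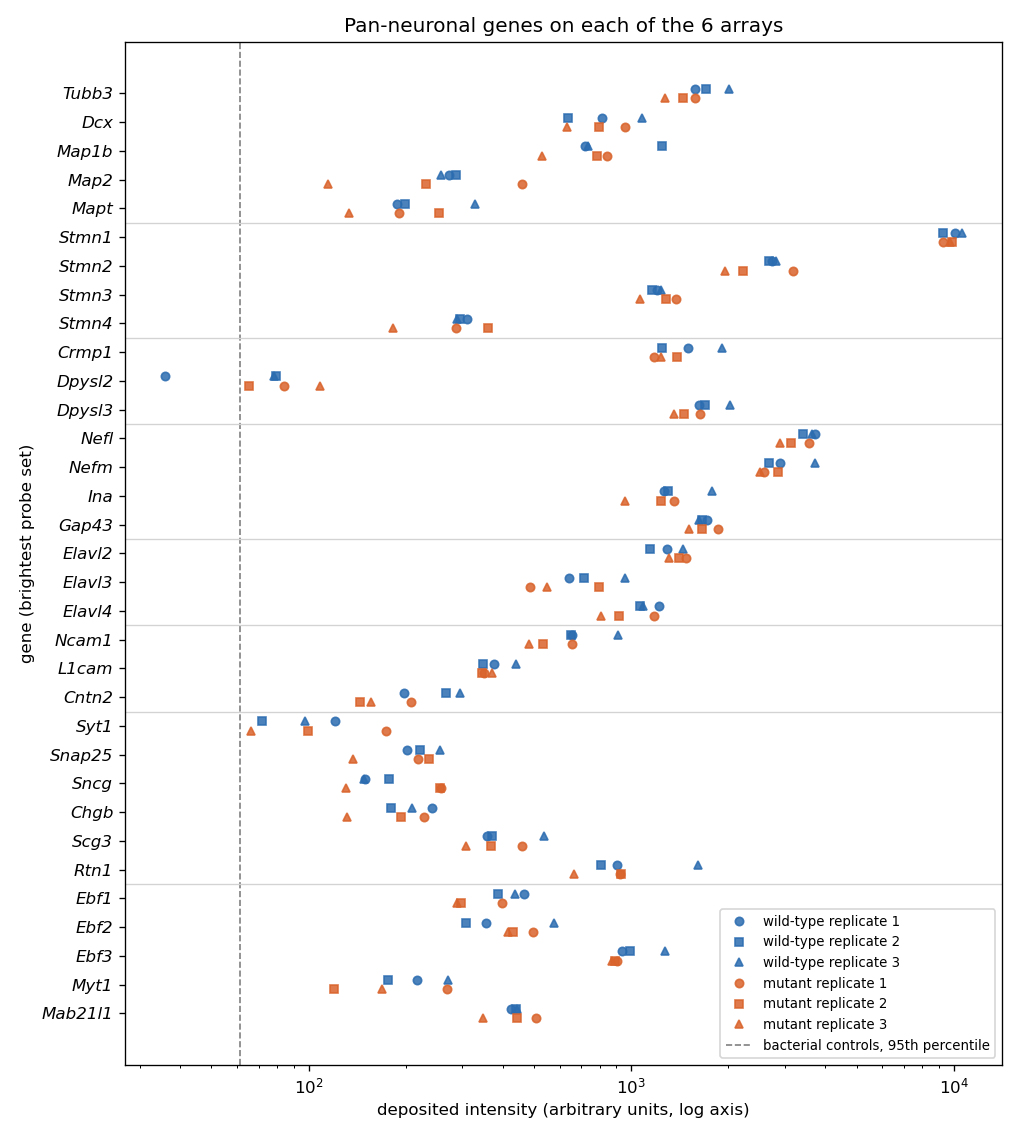
Deposited intensity (log axis) of the brightest probe set of the 33 genes on each array; blue symbols are wild type, orange symbols mutant, the symbol shape gives the replicate number, and the dashed line is the 95th percentile of the bacterial controls. The groups overlap in every row except that of Ebf3, the blue triangle of wild-type replicate 3 is often rightmost and the orange triangle of mutant replicate 3 often leftmost.

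Probe sets of the same gene often disagreed in sign. Over all 70 member probe sets, 46 had a lower mean in mutants, against 54.2% of all probe sets. Among the 19 genes with more than 1 probe set, 8 had all of them lower, 2 all higher and 9 both signs. With a gene's probe sets averaged in place of taking the brightest, 24 of 33 genes were lower and the median difference was -0.14.

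Promoter sequence was examined for what the members might share beyond function. RefSeq promoters (GRCm38.p6, 250 bases before to 50 after a start) were at hand for 20 of the 33 genes, 37 promoters in all. The letters searched, on both strands, included the left and right parts of RE1 (TTCAGCACC and GGACAG), the element bound by REST, a repressor of neuronal genes. The palindrome bound by Ebf proteins (TCCC and GGGA with 2 bases between) was also searched. So were E boxes, which helix-loop-helix factors bind (CANNTG, and within it CAGCTG). TTCAGCACC was in 0 of the 37 and in 0.371% of all 32851 promoters, GGACAG in 10 and in 22.2%, CANNTG in 24 and in 72.3%, and CAGCTG in 9 and in 16.3%. The Ebf palindrome was in 1, that of Scg3, and in 0.904%. Several promoters of a gene overlap, so the 37 are not independent: 6 genes held CAGCTG, Elavl2, Elavl3 and Elavl4 among them. The 250 bases before the start are shown for Scg3, the member with the Ebf palindrome, and for Elavl3 and Ina, with CAGCTG and, in Ina, GGACAG; capitals mark these matches. They are chr9:75684057-75684306 (minus strand), chr9:22052024-22052273 (minus strand) and chr19:47014431-47014680 (plus strand).
Scg3: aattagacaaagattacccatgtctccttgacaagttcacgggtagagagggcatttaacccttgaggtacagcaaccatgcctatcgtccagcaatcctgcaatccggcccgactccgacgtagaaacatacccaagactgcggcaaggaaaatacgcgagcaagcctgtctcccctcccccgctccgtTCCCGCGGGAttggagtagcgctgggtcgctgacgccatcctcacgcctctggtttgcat
Elavl3: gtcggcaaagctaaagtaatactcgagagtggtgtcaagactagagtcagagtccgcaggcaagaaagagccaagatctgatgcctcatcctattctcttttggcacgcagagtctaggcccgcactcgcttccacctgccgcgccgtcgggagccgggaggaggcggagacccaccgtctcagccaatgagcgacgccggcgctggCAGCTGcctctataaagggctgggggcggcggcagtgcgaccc
Ina: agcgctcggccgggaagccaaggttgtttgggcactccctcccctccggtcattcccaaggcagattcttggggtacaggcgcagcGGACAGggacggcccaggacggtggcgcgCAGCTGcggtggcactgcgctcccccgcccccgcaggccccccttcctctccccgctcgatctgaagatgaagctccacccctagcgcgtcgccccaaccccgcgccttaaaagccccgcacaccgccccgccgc

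Other genes of the neuronal programme had a median difference nearer to that of all genes. In a list of 60 further pan-neuronal genes, 52 were measured, 34 had a lower mean in mutants (65.4%), and the median log2 difference was -0.10; 5 were lower and 1 higher at an unadjusted limma p under 0.05, and 0 passed after adjustment. Of the 5 lower genes, Srrm4 and Eno2 were at or below the bacterial level on all arrays, as were Nefh and Myt1l in the rest of the list. By gene, 3.75% of all genes were lower and 1.7% higher by that rule. The smallest p in the list were those of Vamp2, a vesicle SNARE, Dpysl5 and Dpysl4, both of the CRMP family. Vamp2 gave 297 ± 35.6 in the wild type and 185 ± 46.2 in mutants (-0.66, SE 0.19), Dpysl5 gave 557 ± 86.1 and 353 ± 73.9 (-0.64, SE 0.19), and Dpysl4 gave 1119 ± 213 and 782 ± 88.2 (-0.50, SE 0.17), with no overlap between groups in any of them and limma adjusted p of 0.822, 0.825 and 0.833. Of the 52 genes measured, 6 had no overlap with mutants lower and 2 with mutants higher, against 7.33% and 5.0% of all genes. The array scores of this list were -0.0016, 0.060 and 0.085 in the wild type and 0.10, -0.11 and -0.13 in mutants.

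Marker genes of other cell types in the dissection moved with the members on some arrays. Neural progenitor genes had array scores of 0.039, 0.011 and 0.28 in the wild type and -0.055, -0.11 and -0.16 in mutants, so wild-type replicate 3 was high there too; 17 of 20 had a lower mean in mutants, and their summed intensity ran from 28993 to 32139.9 in the wild type and from 26776 to 27771 in mutants. Arch mesenchyme genes had 0.24 on wild-type replicate 3 and -0.081 and -0.015 on the other wild-type arrays, and -0.047, -0.0055 and -0.095 in mutants; 12 of 19 were lower, with sums of 16619 to 18892 and 15823 to 16574. Motor neuron genes had scores of 0.14, 0.26 and 0.32 in the wild type and -0.29, -0.15 and -0.29 in mutants, without overlap between groups. All 12 of 12 measured were lower in the mean, against 54.5% of all genes, and 0 had a limma adjusted p under 0.05. Sums were 3558 to 3922 and 2902 to 3014, and Mnx1 lay below the bacterial level on all arrays. This list, like the others, was chosen with earlier results of these data known, so the separation is a description and not a test. Sensory ganglion genes had 0.084, 0.081 and 0.096 in the wild type and 0.10, -0.20 and -0.16 in mutants; 11 of 13 were lower, with sums of 4682 to 5035 and 3958 to 4638, and Avil and Scn10a below the bacterial level. Isl1, at 1692 ± 124 and 1508 ± 65.7, made up much of the motor neuron sums, and Isl1 and Prph are in both the motor neuron and the sensory lists, so these sums are not separate measurements. The part of these cells in the pan-neuronal values was not tested. Endothelial and blood markers, pooled in 1 list, had 10 of 14 genes lower and 4 higher. Their summed intensity ran the other way, from 35489.5 to 40804 in the wild type and from 39051 to 42558 in mutants. The globins Hbb-bh1, Hba-x and Hbb-y made up most of these sums, with wild-type means of 10776, 11743 and 13069 and mutant means of 12268, 12806 and 12975. The sums therefore say little of endothelium. Likewise Vim, at 11511 and 10949, made up much of the progenitor sums. The median difference was -0.068 in the endothelial and blood list, -0.065 in otic and surface epithelium, 6 of 10 lower, and -0.011 in crest-derived glia, 3 of 5 lower. The scores of otic and surface epithelium did not overlap between groups either, at 0.037, 0.11 and 0.026 in the wild type and -0.036, 0.0013 and -0.14 in mutants.

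**Figure D4:**
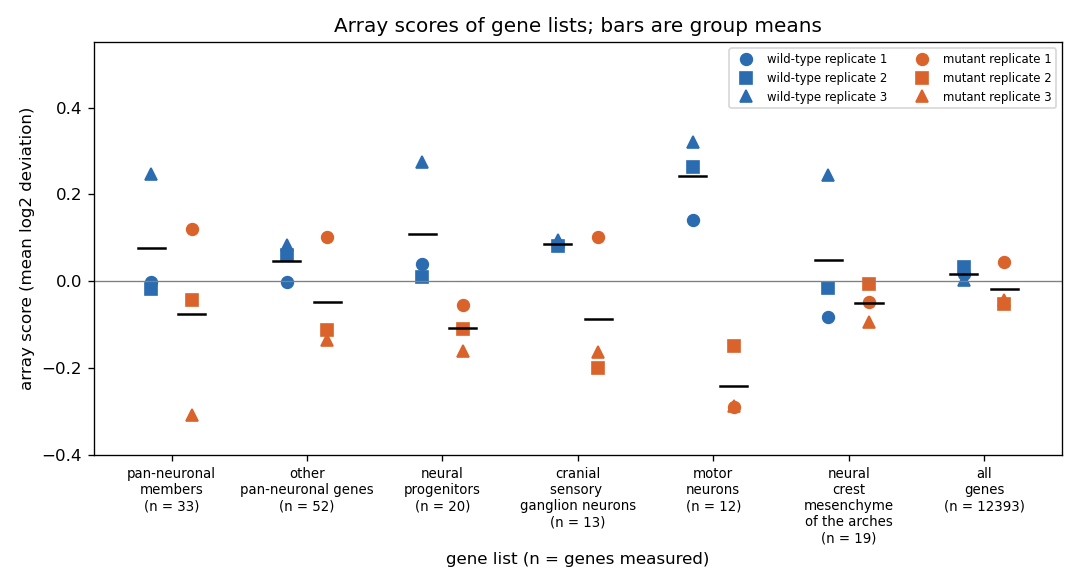
Array scores, the mean log2 deviation of a list's genes from their own 6-array means, for the 33 pan-neuronal genes, 5 other lists and all 12393 genes; each symbol is 1 array, blue wild type and orange mutant, and black bars are group means. Pan-neuronal scores overlap between groups, with wild-type replicate 3 at 0.25 and mutant replicate 3 at -0.31 at the ends, whereas scores of motor neuron and neural progenitor genes do not overlap.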

How the data were processed

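Total RNA of 6 pools was hybridised to Affymetrix 430A arrays. The values deposited by the authors are intensities, 1 for each probe set on each array, linear as their range shows. Per the submitters' processing notes the tool was affy; the sources used here do not state its version, the expression algorithm or the background correction. Of 22690 probe sets, 64 controls were set aside and 22626 tested. Genes were named from the platform annotation where 1 symbol was listed (20380 probe sets). Coordinates are those of RefSeq promoters (GRCm38.p6); that of the array annotation is not stated.

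Intensities were taken as log2(intensity + 16) and the groups tested in R 4.3.3 with limma 3.58.1 (2-sided, all arrays in 1 fit without covariates). The p-values were adjusted by Benjamini-Hochberg over every probe set tested, and the threshold was 0.05. The step was tested on simulated data, where the check was on the median estimate of known differences. Values were simulated independently for each probe set, so the test does not address effects shared across an array. The brightest probe set (highest mean) stood for a gene in counts, medians and array scores, which are described without a test. Values on every array are given for it and for any other member probe set with an unadjusted p under 0.05 or without overlap between groups; every member is named, and up to 3 genes of smallest p from other lists. Further probe sets printed array by array were chosen after their values were seen. So were single genes at or below background or large in a summed intensity, and the E box CAGCTG. The members and lists were chosen with earlier results of these data known.

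Alternatives were quantile normalization, median centring, a filter on dim probe sets, a variance trend with robust estimation, array weights, a replicate block, pseudocounts of 1 and 64, the 18S signal as a covariate, leaving out arrays, and other summaries and thresholds.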

Additional observations from a re-analysis of the deposited data

How the results depend on the processing

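No member probe set passed an adjusted p of 0.05 under any setting fitted that kept more than 1 array in each group. The count was also 0 with adjustment over 1 probe set per gene and at a threshold of 0.1. Few of all probe sets passed 0.05 either: 0 in the main fit, 3 after quantile normalization and 4 after median centring. The filter on dim probe sets gave 2, trend and robust settings 3 and array weights 4. The sample titles give wild-type and mutant arrays of the same replicate number matching codes, whose meaning the sources used here do not state. The replicate numbers were not shown to pair the samples, and a pairing was not excluded. Correlations of deviations were 0.053, -0.017 and 0.045, and 4 of 6 arrays correlated best with their own number. Between arrays of the same number, the median difference over the members was 0.061, 0.0052 and -0.57 for replicates 1, 2 and 3. The replicate block left 1 member probe set lower at an unadjusted p under 0.05 in place of 2 (4.15% of all probe sets, against 3.88%). That count was 4 with trend and robust settings (3.86% of all), 1 with a pseudocount of 1 (3.7%) and 0 with the 18S covariate (2.2%). With that covariate 1 member probe set was higher (1.81% of all). Leaving out single arrays gave 0 to 7 lower and 0 to 2 higher, against 2.88% to 6.51% and 1.75% to 2.21% of all probe sets. Without wild-type replicates 2 and 3 the lone wild-type array is assumed to vary like the mutants, so counts by p are not given for that fit. The count of genes with a lower mean was 24 to 29 in the settings other than those without mutant replicate 3 (20) and without both replicates 3 (16, chosen after seeing the data; score difference 0.048, against -0.15 with all arrays). Over all genes the share with a lower mean was 54.5%, 49.7% after quantile normalization and 43.7% after median centring, where 26 and 24 of 33 members were lower. That share was highest, at 59.3%, without mutant replicate 1, where 29 of 33 members were lower.

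Of 33 probe sets, 20 kept their sign under all settings fitted and 13 did not. Ranges when leaving out 1 array were -0.25 to 0.12 (Dcx), -0.68 to 0.25 (Map2), -0.038 to 0.14 (Stmn3), -0.36 to 0.10 (Stmn4), -0.068 to 0.079 (Gap43), -0.18 to 0.42 (Syt1), -0.35 to 0.015 (Snap25), -0.36 to 0.0056 (Chgb), -0.28 to 0.037 (Scg3), -0.021 to 0.41 (Ebf2) and -0.14 to 0.12 (Mab21l1). With the 18S covariate the signs turned in Map1b (0.021), Gap43 (-0.017), Syt1 (-0.11), Scg3 (0.032) and Mab21l1 (0.032). Without wild-type replicates 2 and 3 they turned in Gap43 (-0.037), Syt1 (-0.16), Scg3 (0.060) and Mab21l1 (0.016), with array weights in Gap43 (-0.026) and Syt1 (-0.0046), after quantile normalization in Gap43 (-0.016) and Mab21l1 (0.017), and after median centring in Stmn1 (0.0023) and Mab21l1 (0.032). The fit with the 18S covariate and that without wild-type replicates 2 and 3 are not separate checks, as stated above. The cause of the sign changes was not tested. With 3 arrays a group, the spread between arrays limits what can be detected.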
